A study of Caenorhabditis elegans with 16 samples.

Results

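The miRNAs of embryos that lack the miR-51 family were compared with those of wild-type embryos, strand by strand. The comparison rests on 4 of 16 small RNA libraries: 2 of the miR-51 family null strain MLC1800 and 2 of the wild type N2. All groups were whole Caenorhabditis elegans embryos at the comma stage, when the body begins to elongate, with 50 embryos per library, and none was treated. MLC1800 carries nDf67 and n4100 on chromosome IV, which remove miR-51, miR-53 and miR-52, and nDf58 on chromosome X, which removes the cluster of miR-54, miR-55 and miR-56. It also carries lucEx1057, an extrachromosomal array with a fosmid that holds the miR-54 cluster and with ttx-3::gfp and mir-35p::gfp as markers, and whether the collected embryos lacked the array is not stated in the sources used here. For residual family members, the null was also compared with the miR-54C strain, which carries nDf67 and n4100 and keeps the cluster, and with the replacement strains miR-52to51, miR52to57seed and miR52to53. The replacement strains carry nDf67 and nDf58 and no array. In place of the mir-52 hairpin they have, in that order, the hairpin of mir-51, of mir-57 with the miR-51 seed, and of mir-53. The strains miR-54+55 and miR-54 also carry nDf67 and n4100. From the cluster, miR-54+55 lacks mir-56, and miR-54 lacks mir-55 and mir-56. Both entered the fit and the values followed across strains. Of the 366 miRNA strands counted in the 16 libraries, 335 had a UMI in at least 1 of the 4 libraries compared, 12 of them from the family. Enough UMIs for a test were counted on 162 strands, of which 150 lay outside the family.

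A miRNA is cut from a hairpin precursor with a 5p and a 3p arm. One arm, the guide, is kept by an Argonaute protein and pairs with target mRNAs through its seed near the 5′ end, and the other arm, the passenger, is mostly discarded. The miR-51 family belongs to the miR-100 family, one of the oldest miRNA families of animals, and its loss in worms is lethal around the time of morphogenesis. Here the guide of a hairpin was the arm with more UMIs in the 12 libraries of the 6 other strains, so that the libraries under comparison did not choose it. By this rule the guides of miR-51, miR-52 and miR-53 came from the 5p arm and those of the other 3 hairpins from the 3p arm.

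The null libraries held 104016 and 91810 miRNA UMIs, against 844718 and 229603 in the N2 libraries. A UMI is a random tag that marks a molecule before amplification. Outside the family, the null libraries held 102411 and 90810 UMIs, against 609585 and 156530 in N2. Levels are given as UMIs per 1000000 UMIs of miRNAs outside the family (UPM), after scaling with TMM factors over the tested strands outside the family, so that the loss of the family itself does not raise the level of the others. A change shared by all other miRNAs cannot be seen on this scale. A single UMI was worth 9.79 and 11.4 UPM in the null libraries, against 1.70 and 7.02 UPM in N2, and 3 UMIs, the most that a count of 0 allows, were worth 29.4 and 34.1 UPM, against 5.09 and 21.1 UPM. The replicates of the null differed more from each other than those of N2: the median difference between replicates was 0.454 in the null and 0.150 in N2 on the log2 scale. The labels name the same batch for every library. The 2 libraries of a strain carried a barcode that no other strain had, and an effect of it cannot be told apart from one of the genotype.

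All 6 guide strands of the miR-51 family fell in the null. The family took 1.54% and 1.09% of all miRNA UMIs in the null libraries, against 27.8% and 31.8% in N2. Its guides alone made up 1.30% ± 0.322 in the null and 28.7% ± 2.90 in N2 (SD, n = 2 each). The two-sided exact permutation test gave p = 0.33, and with 2 libraries in each group it can give no smaller value. In the fit over all 162 strands, 21 passed the threshold of 0.05 on the adjusted p and are referred to as called (13%), and 12 of these were the strands of the family.

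The guides fell into 2 groups by how much was left, and the groups followed the locus. On chromosome IV (WBcel235), mir-51 occupies bases 11026013 to 11026112 and mir-53 bases 11027593 to 11027691, both on the minus strand, and mir-52 bases 14034008 to 14034107 on the plus strand. miR-52-5p, the most abundant miRNA strand in N2, was at 754 and 1411 UPM in the null libraries, against 184941 and 260111 UPM in N2. miR-51-5p was at 235.0 and 614 UPM in the null, against 71422 and 87132 UPM in N2. miR-53-5p, the least abundant member, was at 39.2 and 34.1 UPM in the null, from 4 and 3 UMIs, against 9099 and 9778 UPM in N2. All 3 guides from chromosome IV were thus left at under 1% of N2, with 0.486% for miR-52-5p, 0.536% for miR-51-5p and 0.388% for miR-53-5p. Their log2 fold changes were -7.69 (SE 0.36, adjusted p = 7.51e-11), -7.56 (SE 0.46, adjusted p = 1.62e-09) and -7.96 (SE 0.36, adjusted p = 7.51e-11). These p-values and those that follow come from edgeR's quasi-likelihood fit, adjusted after Benjamini and Hochberg.

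The guides of the miR-54 cluster on chromosome X were left at higher shares of their N2 levels. Their hairpins lie in an intron of F09A5.3, opposite to its direction. miR-54-3p was at 3437 and 2275 UPM in the null libraries, against 32111 and 37862 UPM in N2. miR-55-3p was at 5347 and 3072 UPM in the null, against 41330 and 50246 UPM in N2. miR-56-3p was at 5788 and 3834 UPM in the null, against 43639 and 51546 UPM in N2. No null library overlapped with an N2 library for any of the 3, and what was left was 8.16% of N2 for miR-54-3p, 9.19% for miR-55-3p and 10.1% for miR-56-3p. Their log2 fold changes were -3.61 (SE 0.25, adjusted p = 7.95e-09), -3.44 (SE 0.33, adjusted p = 4.10e-07) and -3.31 (SE 0.27, adjusted p = 5.37e-08). The cluster gave 93.4% and 81.7% of the family's guide UMIs in the null libraries, against 30.6% and 28.1% in N2.

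**Figure D1:**
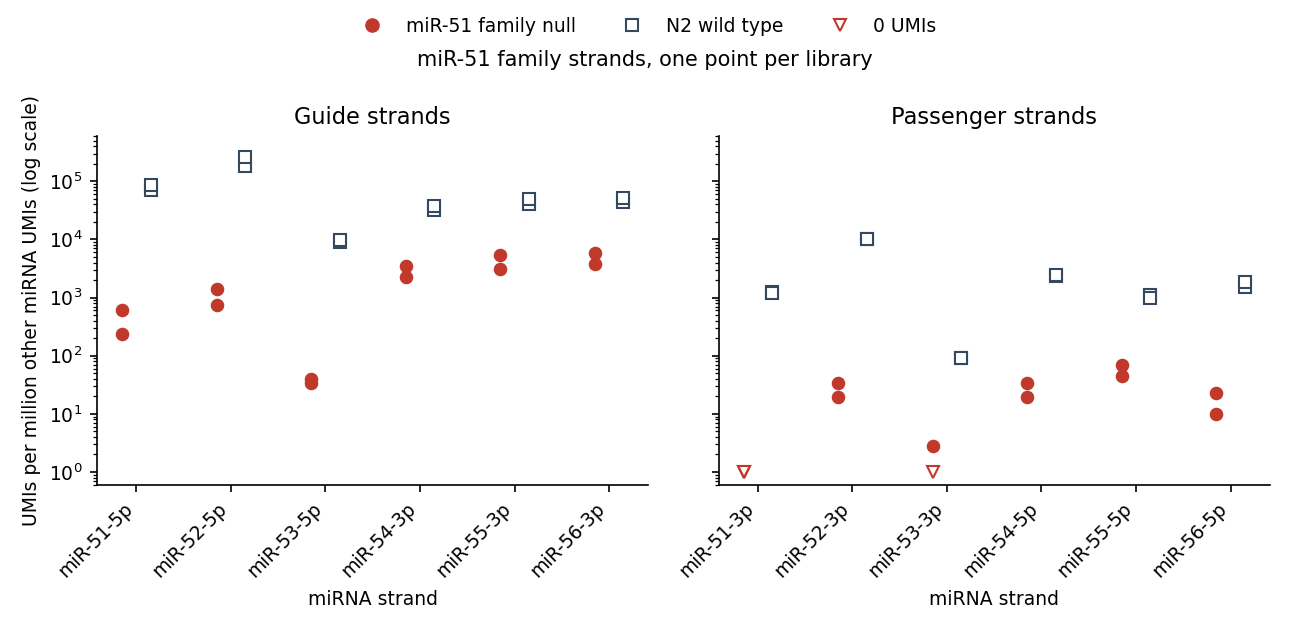
Levels of the 6 guide strands (left) and the 6 passenger strands (right) of the miR-51 family in UPM, on a log axis, with 1 point per library of the family null and of N2. Open triangles at the foot mark libraries with 0 UMIs. Every null library lies below both N2 libraries for each strand, and the 3 guides on the right side of the left panel, from the cluster, keep between 2275 and 5788 UPM in the null.

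The passenger strands of the 6 hairpins fell as well. Together they took 0.0115% and 0.0133% of all UMIs in the null libraries, against 1.14% and 1.03% in N2. miR-51-3p had 0 UMIs in either null library, against 735 and 168 UMIs in N2, and was at least 38.2-fold lower with 3 UMIs taken per null library. miR-52-3p had 2 and 3 UMIs in the null, against 5943 and 1431 in N2, and pooled over the null libraries this was 0.261% of N2, with a 95% counting interval (exact Poisson) from 0.0849% to 0.610%. miR-53-3p had 0 and 0.25 UMIs in the null, against 54 and 13 in N2. On chromosome IV, then, passengers were nearly absent, like their guides.

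From the cluster, miR-54-5p had 2 and 3 UMIs in the null, against 1382 and 350 in N2, or 1.10% of N2 with a counting interval from 0.356% to 2.56%. miR-56-5p had 1 and 2 UMIs in the null, against 884 and 266 in N2, or 0.937% of N2 with an interval from 0.193% to 2.74%. miR-55-5p had 7 and 4 UMIs in the null, against 655 and 139 in N2, or 5.55% of N2 with an interval from 2.77% to 9.92%. These intervals cover counting error only. The upper bounds of miR-54-5p and miR-56-5p lie under the shares left of their guides, 8.16% and 10.1%, while the interval of miR-55-5p includes that of its guide. Within the hairpins, miR-54-5p made up 0.567% and 1.48% of the mir-54 UMIs in the null, against 6.80% and 6.10% in N2, and miR-56-5p 0.169% and 0.590% of the mir-56 UMIs in the null, against 3.32% and 3.50% in N2. miR-55-5p made up 1.27% and 1.46% of the mir-55 UMIs in the null, against 2.62% and 1.91% in N2. The passenger share was lower in the null libraries than in the N2 libraries for all 3 hairpins, a comparison within a library in which its scale cancels.

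Among themselves the 3 cluster guides kept their order. The ratio of miR-55-3p to miR-54-3p was 1.56 and 1.35 in the null, against 1.29 and 1.33 in N2, and that of miR-56-3p to miR-54-3p was 1.68 and 1.69 in the null, against 1.36 and 1.36 in N2. Each ratio was higher in both null libraries than in either N2 library, and no exact test can pass with so few libraries.

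The residual family members were set against strains with the same deletions. The cluster guides were 20.5-fold (miR-54-3p), 20.1-fold (miR-55-3p) and 26.8-fold (miR-56-3p) higher in the null than in the mean of the 3 replacement strains, which carry the same cluster deletion and no array. miR-54-3p was at 3437 and 2275 UPM in the null, against 107 to 222 UPM in the 6 libraries of the replacement strains. miR-55-3p was at 5347 and 3072 UPM, against 108 to 467 UPM, and miR-56-3p at 5788 and 3834 UPM, against 84.4 to 289 UPM. The ranges did not overlap. The log2 fold changes were 4.35 (SE 0.22, adjusted p = 1.56e-10), 4.33 (SE 0.27, adjusted p = 3.01e-09) and 4.74 (SE 0.23, adjusted p = 1.56e-10). In this comparison 4 of 162 strands were called higher (2.47%), the fourth being miR-55-5p (log2 fold change 5.88, SE 0.86, adjusted p = 0.000432), and 2 lower (1.23%), which were miR-51-5p and miR-53-5p, the guides that 2 of the replacement strains express from the miR-52 locus. The genotypes compared differ in the array and in the replaced hairpin, and the part of each in the difference was not tested.

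For miR-51, miR-52 and miR-53, no strand passed the test between the null and the miR-54C strain, which carries the same deletions on chromosome IV. miR-52-5p was at 754 and 1411 UPM in the null, against 863 and 895 UPM in miR-54C (log2 fold change 0.29, SE 0.30, adjusted p = 0.670). miR-51-5p was at 235.0 and 614 UPM, against 305 and 362 UPM (0.33, SE 0.43, adjusted p = 0.726). miR-53-5p was at 39.2 and 34.1 UPM, against 52.3 and 111 UPM (-1.10, SE 0.50, adjusted p = 0.414, all). The groups overlapped for miR-52-5p and miR-51-5p, while miR-53-5p was lower in both null libraries than in either miR-54C library. The passenger miR-52-3p had 2 and 3 UMIs in the null, against 0 and 0 in miR-54C (unadjusted p = 0.00602, adjusted p = 0.122). A p that misses the threshold does not show that these levels are the same. Against miR-54C, 0 of 162 strands were called higher (0%) and 6 lower (3.70%), and the 6 were the guides and passengers of the cluster that miR-54C keeps.

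**Figure D2:**
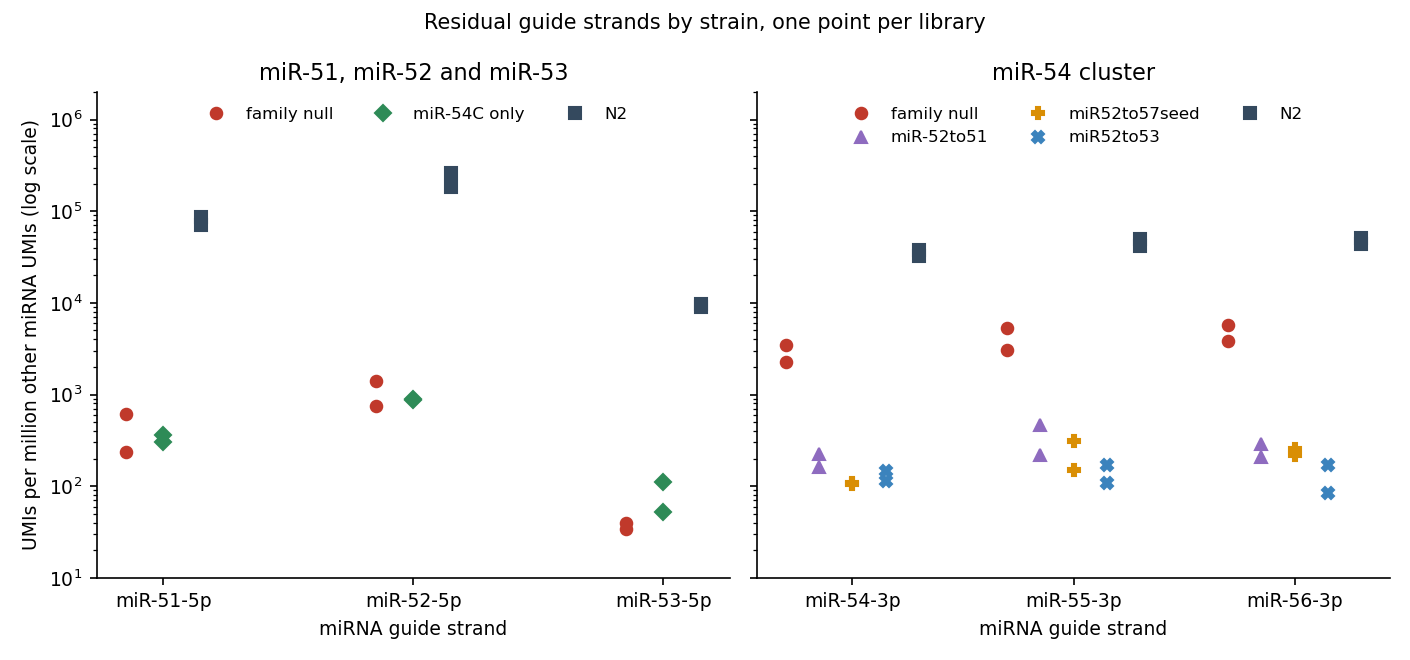
Levels of the miR-51 family guides by strain in UPM, on a log axis, with 1 point per library. On the left, miR-51-5p and miR-52-5p in the null overlap with the miR-54C strain, and miR-53-5p lies below it at 39.2 and 34.1 UPM, against 52.3 and 111 UPM. On the right, the 3 guides of the cluster in the null lie between 2275 and 5788 UPM, above the replacement strains with 84.4 to 467 UPM and below N2.

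Outside the family few strands changed. The libraries were made from whole embryos, so that fewer cells of a type and less of a miRNA per cell cannot be told apart. Of the 150 tested, 9 were called (6%), 3 higher (2%) and 6 lower (4%), and the median log2 fold change over the 150 was -0.04. The 3 strands that rose were guides from the 3p arm: miR-70-3p, miR-235-3p and miR-78-3p. The 6 strands that fell were passengers: miR-62-5p, miR-43-5p, miR-44-5p and miR-124-5p from the 5p arm, and miR-86-3p and miR-228-3p from the 3p arm. Scaling moved the balance of the directions: with median-of-ratios size factors, which raised the median of the 150 strands to 0.07, 3 were called higher and 3 lower, and DESeq2, with the same kind of size factors, called 3 higher and 2 lower. With no filter on low counts the calls were 8 higher and 2 lower, and in a fit of the 4 libraries alone 6 higher and 2 lower. Leaving out a library also mattered, with 1 call without N2 replicate 1 and 2 without N2 replicate 2, and 5 without replicate 1 of the null and 6 without its replicate 2.

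**Figure D3:**
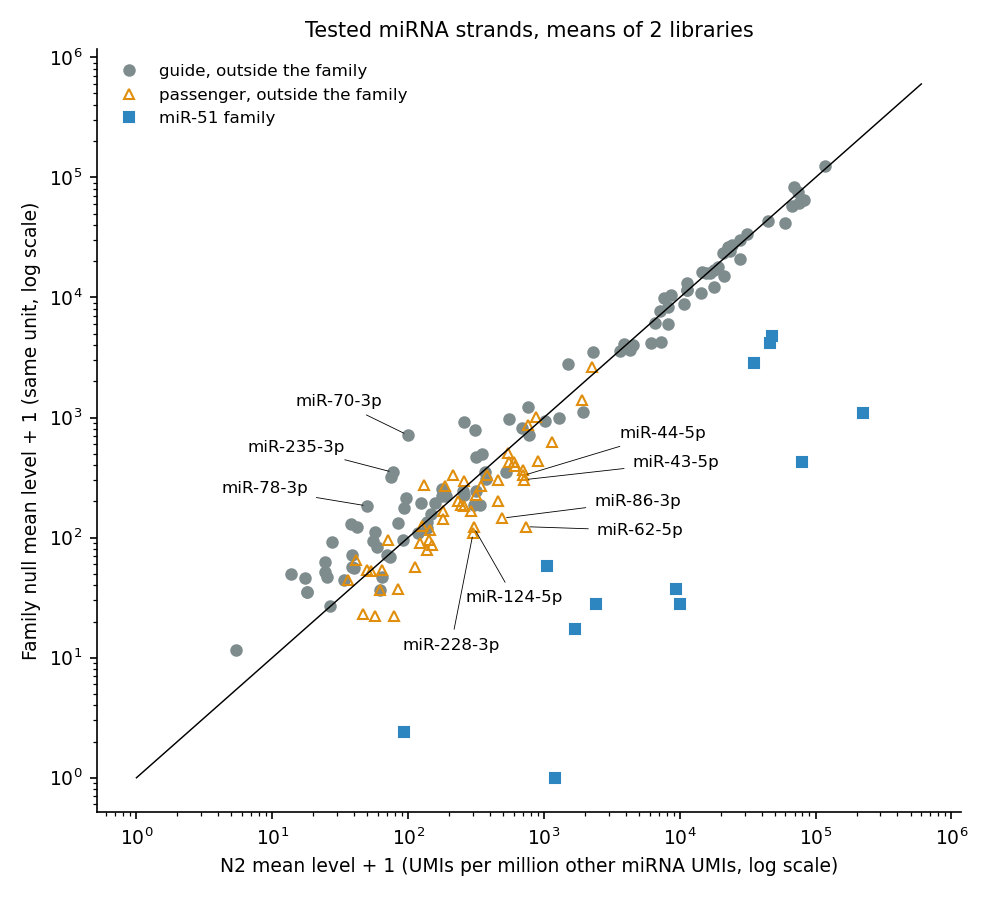
Mean level of each of the 162 tested strands in the family null (vertical) and in N2 (horizontal), in UPM plus 1, both on log axes, with the line of equal levels. The 12 family strands lie far below the line, and the 9 called strands outside the family are named. Abundant guides lie along the line.

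miR-70-3p had the largest rise. It was at 539 and 887 UPM in the null libraries, from 55 and 78 UMIs, against 98.4 and 98.3 UPM in N2. Both null libraries lay well above N2, and the level was 7.16-fold higher (log2 fold change 2.84, SE 0.59, adjusted p = 0.00263). Without N2 replicate 1 the log2 fold change was 2.92 and missed the threshold (adjusted p = 0.0545). The other arm, miR-70-5p, had 0 and 34.1 UPM in the null, against 1.70 and 7.02 UPM in N2, too few UMIs for a test. The mir-70 hairpin lies on the minus strand of chromosome V from 6665536 to 6665635 in the WBcel235 assembly, within an intron of pmp-5 and in its direction.

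miR-235-3p, a relative of vertebrate miR-92 that holds blast cells quiescent in starved larvae, was at 333 and 364 UPM in the null, against 89.9 and 63.2 UPM in N2. The null libraries agreed closely and lay above N2 (4.33-fold, log2 fold change 2.12, SE 0.58, adjusted p = 0.0242). With each of the 4 libraries left out in turn the log2 fold change was 1.93 to 2.52 and missed the threshold (adjusted p = 0.0504 to 0.195). Its passenger miR-235-5p, with 1 to 3 UMIs per library, was not tested. miR-78-3p was at 206 and 159 UPM in the null, against 62.8 and 35.1 UPM in N2 (3.42-fold, log2 fold change 1.77, SE 0.56, adjusted p = 0.0474). Its hairpin spans bases 15165647 to 15165742 of chromosome IV on the plus strand, and 2 annotated piRNA loci, 21ur-10414 and 21ur-9780, lie within it on the same strand. It too missed the threshold with each library left out in turn (log2 fold change 1.52 to 2.41, adjusted p = 0.0970 to 0.297), and also with the replicate number as a block (1.79, adjusted p = 0.0584). N2 held only 9 and 5 UMIs of miR-235-3p and miR-78-3p in replicate 2, which limits how well both rises are measured.

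miR-62-5p had the largest fall and was the only strand outside the family past the threshold in all alternatives run. It was at 176 and 68.3 UPM in the null libraries, from 18 and 6 UMIs, against 892 and 576 UPM in N2 (log2 fold change -2.57, SE 0.51, adjusted p = 0.00181). Its guide, miR-62-3p, was at 14445 and 6644 UPM in the null, against 8607 and 8528 UPM in N2, so that the null libraries lay on either side of N2 (log2 fold change 0.30, SE 0.33, adjusted p = 0.681). The passenger was thus lower and the guide was not. The hairpin lies on the plus strand of chromosome X from 12692608 to 12692665, in an intron of ugt-50 and in its direction.

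miR-86-3p showed the same picture. It was at 186 and 102 UPM in the null, against 524 and 464 UPM in N2 (log2 fold change -1.76, SE 0.48, adjusted p = 0.0242), while its guide miR-86-5p was at 13955 and 12525 UPM in the null, against 10892 and 11569 UPM in N2 (0.24, SE 0.21, adjusted p = 0.576). The hairpin lies in an intron of Y56A3A.7, on the minus strand of chromosome III from 11936637 to 11936734. miR-228-3p, the passenger of a glial miRNA, was at 137 and 79.6 UPM in the null, against 319 and 281 UPM in N2 (-1.45, SE 0.41, adjusted p = 0.0259). Its guide miR-228-5p was at 3369 and 3811 UPM in the null, against 3554 and 3723 UPM in N2, with overlapping groups (-0.02, SE 0.27, adjusted p = 0.962). Both calls held without replicate 1 of the null. They missed the threshold without any other of the 4 libraries, with log2 fold changes of -1.85 to -1.30 for miR-86-3p and of -1.54 to -1.02 for miR-228-3p.

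miR-124-5p is the passenger of miR-124, which is made in sensory neurons. It was at 118 and 125 UPM in the null, against 302 and 302 UPM in N2 (log2 fold change -1.31, SE 0.39, adjusted p = 0.0326). The guide miR-124-3p was at 5220 and 3072 UPM in the null, against 7046 and 5149 UPM in N2 (-0.56, SE 0.36, adjusted p = 0.403), so that for this hairpin the guide also lay toward the low side, with overlapping groups. The call of miR-124-5p was lost with each library left out in turn (log2 fold change -1.32 to -1.19, adjusted p = 0.134 to 0.204). The hairpin lies in an intron of trpa-1 in its direction, at 11871738 to 11871833 of chromosome IV, plus strand.

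miR-43-5p and miR-44-5p come from neighbouring hairpins on the plus strand of chromosome II, mir-43 from 11889910 to 11890007 and mir-44 from 11890023 to 11890118. miR-43-5p was at 235.0 and 370 UPM in the null, against 631 and 794 UPM in N2 (log2 fold change -1.25, SE 0.36, adjusted p = 0.0311). miR-44-5p was at 304 and 353 UPM in the null, against 628 and 780 UPM in N2 (-1.09, SE 0.33, adjusted p = 0.0389). miR-43-5p was called without replicate 2 of the null but not without any other of the 4 libraries (log2 fold change -1.33 to -0.88), and miR-44-5p in no fit that left one out (-1.17 to -0.91). The guides of the pair stood differently to N2: miR-43-3p was at 5376 and 3185 UPM in the null, against 8775 and 5732 UPM in N2 (-0.76, SE 0.35, adjusted p = 0.236), and miR-44-3p at 12280 and 10637 UPM, against 11699 and 10804 UPM (0.03, SE 0.31, adjusted p = 0.962). miR-44-3p and miR-45-3p had nearly equal counts in every library, as reads that fit both are divided among them, so that neither guide is measured on its own. The passenger of the third hairpin of the cluster, miR-42-5p, was at 294 and 580 UPM in the null, against 748 and 1047 UPM in N2, and did not pass (-1.04, SE 0.35, adjusted p = 0.0724). The 5p passengers of mir-42, mir-43 and mir-44 together took 0.0830% and 0.126% of the UMIs outside the family in the null, against 0.194% and 0.238% in N2.

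**Figure D4:**
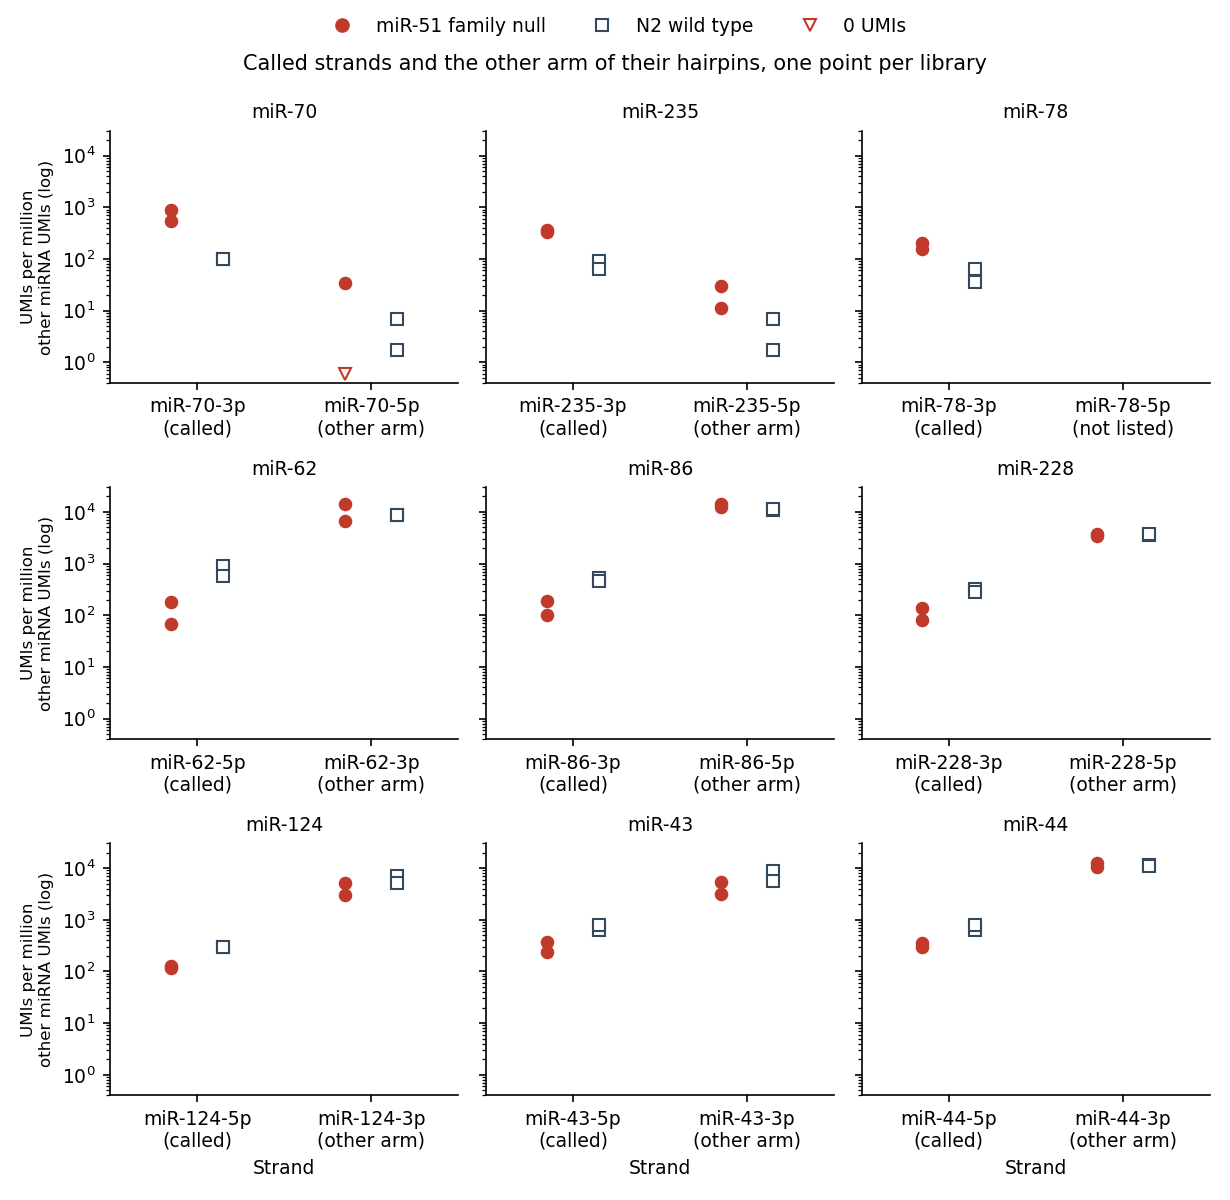
Levels of the 9 called strands outside the miR-51 family and of the other arm of their hairpins in UPM, on log axes, with 1 point per library. For miR-62, miR-86, miR-228 and miR-44 the called passenger is lower in both null libraries while the guides of null and N2 lie at 3369 UPM or more, with log2 fold changes of -0.02 to 0.30. The triangle marks 0 UMIs, and miR-78-5p had no UMI.

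In the 12 libraries of the other strains, which differ from N2 in the family as well, the same 9 strands were followed as values. miR-62-5p ranged from 114 to 514 UPM there, with a median of 296, below both N2 libraries in 12 of 12 and above both null libraries in 9. miR-43-5p ranged from 156 to 452 UPM and was below both N2 libraries in 12 of 12. miR-70-3p ranged from 150 to 1990 UPM, with a median of 778, and miR-78-3p from 95.9 to 385 UPM, and both were above the N2 libraries in 12 of 12. For these strands N2 stood apart from all other strains, not only from the null. The strands were picked by their difference from the same N2 libraries, which favours N2 values at the edge of the range. The same count over all strands tested was not made. miR-228-3p ranged from 183 to 363 UPM and miR-124-5p from 145 to 400 UPM, both above the null libraries in 12 of 12. miR-235-3p ranged from 21.4 to 568 UPM, above both N2 libraries in 9 and above both null libraries in 2. miR-86-3p ranged from 114 to 568 UPM, below both N2 libraries in 10 and above both null libraries in 11. miR-44-5p ranged from 170 to 645 UPM, below both N2 libraries in 11 and above both null libraries in 6.

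Tested against miR-54C and the replacement strains, no strand outside the family passed in edgeR's fit. In the null against miR-54C, 0 of 150 were called, with 16 at an unadjusted p under 0.05, and in the null against the replacement strains 0 of 150, with 21 at an unadjusted p under 0.05, while DESeq2 called 1 in each. Among the strands called against N2, miR-228-3p came nearest, with a log2 fold change of -1.12 against miR-54C (SE 0.43, adjusted p = 0.234) and -1.37 against the replacement strains (SE 0.38, adjusted p = 0.0534). miR-62-5p was at -1.21 (SE 0.53, adjusted p = 0.323) and -1.24 (SE 0.47, adjusted p = 0.211), and miR-86-3p at -0.87 and -1.29. miR-43-5p and miR-44-5p were between -0.37 and -0.12, and miR-70-3p was at 0.94 and 0.21. These comparisons share the null libraries with that against N2 and are given side by side, not as separate support.

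By role, the median change of the passengers lay below that of the guides. Over the 100 guides tested the median log2 fold change was 0.10, with 3 called higher and 0 lower, and over the 50 passengers tested, of 143 counted, it was -0.48, with 0 higher and 6 lower. Both null libraries lay below both N2 libraries for 30 of 50 passengers and 15 of 100 guides, against 45 of all 150 strands (30%). They lay above for 4 passengers and 27 guides, against 31 of all 150 (20.7%). The 40 passengers from the 5p arm had a median of -0.50 and the 10 from the 3p arm one of 0.04. Guides had a median of 0.11 over 33 from the 5p arm and of 0.09 over 67 from the 3p arm. Called lower were 4 of the 40 passengers from the 5p arm and 2 of the 10 from the 3p arm, and a difference between the arms was not tested.

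The shift of the passengers was unequal between the null libraries. All passengers outside the family together took 1.26% and 1.81% of the UMIs outside the family in the null, against 1.93% and 1.90% in N2 and 1.52% to 1.99% in the 12 libraries of the other strains, so that replicate 1 of the null was the lowest of all 16 and replicate 2 was within the others. Without replicate 1 of the null, the median of the passengers was -0.22 and 3 were called lower, and without replicate 2 it was -0.60, again with 3 called lower. Leaving out either N2 library left 1 passenger called lower. Under the 4 other scalings the median of the passengers stayed between -0.47 and -0.36.

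**Figure D5:**
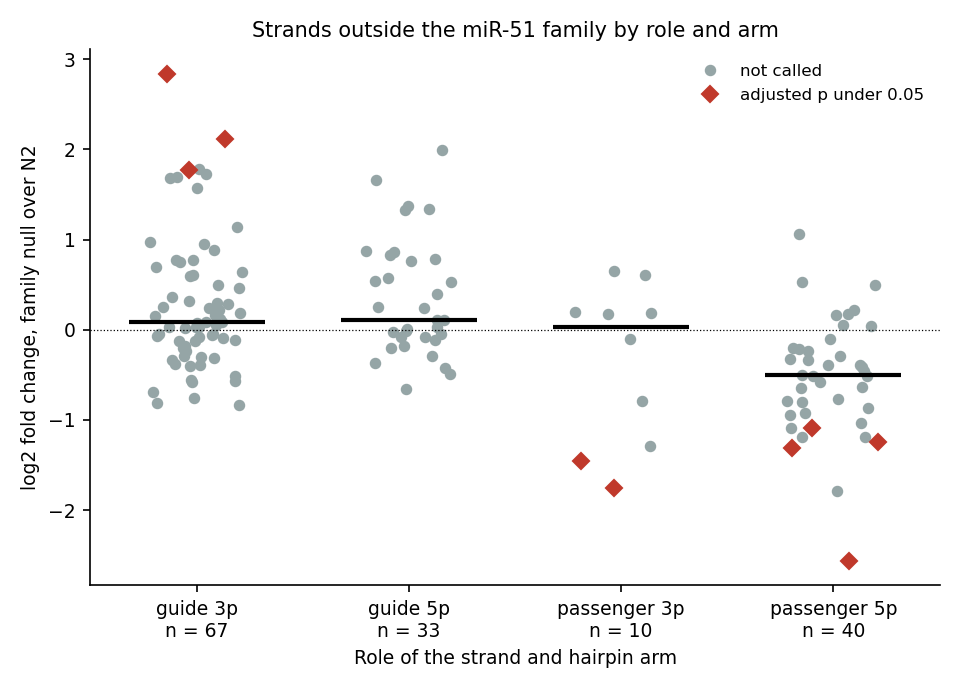
Log2 fold change of the family null over N2 for the 150 tested strands outside the miR-51 family, by role and hairpin arm, with 1 point per strand and a bar at the median. Medians are 0.09 and 0.11 for guides from the 3p and 5p arms, 0.04 for passengers from the 3p arm and -0.50 for passengers from the 5p arm. Called strands are diamonds, with 3 among the guides and 6 among the passengers.

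Within a hairpin, where the scale of a library cancels, 30 hairpins had at least 10 UMIs of each arm in all 4 libraries. The ratio of passenger to guide was lower in the null for 22 of 30, with a median difference of -0.33 on the log2 scale. Both null libraries were below both N2 libraries for 9 hairpins and above them for 2. miR-60-5p, the passenger of an intestinal miRNA, stood at 2.12% and 2.65% of its hairpin's UMIs in the null, against 5.93% and 4.79% in N2. miR-44-5p stood at 2.41% and 3.21% in the null, against 5.09% and 6.73% in N2, and miR-79-5p, from an epidermal miRNA, at 1.44% and 1.51%, against 2.86% and 2.99%. mir-42, mir-90, mir-124, mir-46, mir-49 and mir-80 were the other hairpins with lower shares in both null libraries. The opposite case was mir-250, whose passenger miR-250-5p made up 34.4% and 52.7% of its UMIs in the null, against 16.6% and 24.4% in N2. miR-250-5p was at 215 and 330 UPM in the null, against 127 and 133 UPM in N2 (log2 fold change 1.06, SE 0.48, adjusted p = 0.217), and miR-250-3p at 411 and 296 UPM, against 638 and 414 UPM (-0.58, SE 0.39, adjusted p = 0.418). The median difference of -0.33 is within the spread of the null: the replicates of the null differed by a median of 0.757 in size, against 0.258 in N2, and without replicate 1 of the null the median difference was 0.06.

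Among guides, the level of a strand also went with its change. The 24 guides with a mean level under 100 UPM had a median log2 fold change of 0.78, the 33 guides from 100 to 1000 UPM one of 0.28, and the 43 guides from 1000 UPM upward one of -0.02. The null libraries were the shallower ones, and the part of depth in this order was not tested. All 43 abundant guides were within -0.81 (miR-231-3p) and 0.87 (miR-71-5p), and the lowest adjusted p among them was 0.166. Of the passengers, 36 were at 100 to 1000 UPM, with a median of -0.50, so that at that level guides and passengers had medians on opposite sides of 0. The 12 passengers under 100 UPM had a median of -0.50 as well, and the 2 from 1000 UPM upward one of -0.12. A positive median at low levels was thus seen in guides only.

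The miR-35 family, the other family that embryos cannot live without and the main mark of embryonic miRNA, took a similar share in both groups. Its 8 guides took 51.1% and 52.3% of the UMIs outside the miR-51 family in the null, against 51.8% and 51.8% in N2 (two-sided exact permutation test, p = 1). With 2 libraries in each group this test can give no p under 0.33, so it cannot show that the shares are the same. The family is also a large part of the UMIs it is divided by, so that a change in it moves the share less. None of the 8 was called or had an unadjusted p under 0.05, and their median log2 fold change was -0.01, and 0.11 with median-of-ratios size factors. miR-35-3p, the most abundant, was at 103953 and 146274 UPM in the null, against 108663 and 126933 UPM in N2. The members spread to both sides: miR-38-3p was at 44803 and 38963 UPM in the null, against 58990 and 60179 UPM in N2 (-0.51, SE 0.34, adjusted p = 0.423), and miR-39-3p at 83035 and 82681 UPM, against 63694 and 75563 UPM (0.25, SE 0.24, adjusted p = 0.610).

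The developmental timing miRNAs of the let-7 and lin-4 families, which rise in larvae and set the order of larval stages, were low in these embryos and lay on the high side in the null. Of 9 on the list, 6 were tested and 0 were called, with 1 at an unadjusted p under 0.05, and all 6 log2 fold changes were positive, with a median of 1.35, beside 0.78 over the guides under 100 UPM and 0.28 over those from 100 to 1000 UPM. Together the family members took 0.201% and 0.153% of the UMIs outside the miR-51 family in the null, against 0.0827% and 0.0684% in N2 (two-sided exact permutation test, p = 0.33, its lower limit here). lin-4-5p was at 460 and 182 UPM in the null, against 105 and 42.1 UPM in N2 (1.99, SE 0.69, adjusted p = 0.0768). miR-48-5p was at 813 and 774 UPM in the null, against 366 and 253 UPM in N2 (1.33, SE 0.82, adjusted p = 0.384), and let-7-5p at 460 and 535 UPM, against 304 and 393 UPM (0.52, SE 0.58, adjusted p = 0.681). miR-84-5p was at 137 and 45.5 UPM, against 32.2 and 21.1 UPM. Levels overlapped for miR-241-5p and miR-237-5p, and without replicate 1 of the null the median was 0.71, with 2 of 6 values negative.

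Of the abundant tissue miRNAs, the guides of muscle, intestine and epidermis were near their N2 levels, and the neuronal miR-124-3p, with 5220 and 3072 UPM in the null, against 7046 and 5149 UPM in N2, stood at 68.0% of N2 and did not pass the test. miR-1-3p, of body wall muscle and pharynx, was at 16589 and 19248 UPM in the null, against 18197 and 20027 UPM in N2 (log2 fold change -0.09, SE 0.41, adjusted p = 0.931). miR-60-3p, of the intestine, was at 8579 and 7929 UPM in the null, against 7378 and 8935 UPM in N2 (0.02, SE 0.21, adjusted p = 0.962). miR-79-3p, of the epidermis, was at 30104 and 18577 UPM in the null, against 24237 and 22535 UPM in N2 (0.06, SE 0.26, adjusted p = 0.932). For each of the 3 the groups overlapped. lsy-6-3p, which is made in very few neurons, was at 78.3 and 56.9 UPM in the null, against 67.9 and 77.3 UPM in N2. miR-791-3p, also neuronal, had 1 and 0 UMIs in the null, against 7 and 2 in N2, too few for a test. The other intestinal strands were low: miR-240-3p was at 58.8 and 182 UPM in the null, against 25.4 and 56.2 UPM in N2 (1.69, SE 0.96, adjusted p = 0.339), and miR-786-3p at 9.79 and 91.0 UPM, against 25.4 and 21.1 UPM.

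Among stress and lifespan miRNAs, 4 of 4 had positive values, with a median of 0.83, 0 called and 0 at an unadjusted p under 0.05. The groups overlapped for miR-239a-5p, at 656 and 273 UPM in the null, against 404 and 225 UPM in N2. They also overlapped for miR-246-3p, with 10 and 0 UMIs in the null, against 11 and 1 in N2. Over all 150 strands, 77 values were negative and 6% were called. miR-34-5p and miR-246-3p had mean levels under 100 UPM, where the 24 guides had a median of 0.78. miR-239a-5p lay at 100 to 1000 UPM and miR-71-5p above 1000 UPM, where guides had medians of 0.28 and -0.02. The abundant one, miR-71-5p, which promotes long life and stress resistance in adult worms, was at 2546 and 2981 UPM in the null, against 1391 and 1637 UPM in N2, above it in both libraries but short of the threshold (log2 fold change 0.87, SE 0.47, adjusted p = 0.325). Together the 4 took 0.341% and 0.322% of the UMIs outside the family in the null, against 0.180% and 0.175% in N2, most of it from miR-71-5p.

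By seed family, 0 members were called in any of the 6 lists, with 3 at an unadjusted p under 0.05. The miR-58 family, which shares the seed of bantam, had a median log2 fold change of 0.04 over 4 tested, and miR-58a-3p was at 71136 and 45379 UPM in the null, against 67245 and 66754 UPM in N2. The miR-2 family had -0.49 over 4, with 3 of 4 below both N2 libraries, as were 30% of all strands, and miR-2-3p was at 23503 and 18441 UPM in the null, against 27435 and 27662 UPM in N2 (-0.39, SE 0.23, adjusted p = 0.354). In the miR-44 family miR-61-3p was at 3202 and 3765 UPM in the null, against 2309 and 2255 UPM in N2 (0.61, SE 0.27, adjusted p = 0.202). The cluster of miR-64 and its relatives had a median of -0.08 over 5, miR-72, miR-73 and miR-74 one of 0.10 over 3, and miR-50, miR-62 and miR-90 one of 0.18 over 3, beside -0.04 over all 150.

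Strands found in a single genotype were rare. No strand outside the family had UMIs in both null libraries and in neither N2 library. The reverse, with at least 3 UMIs in each N2 library and 0 in the null, held for miR-2220-3p, with 12 and 3 UMIs in N2, and miR-787-5p, with 4 and 3 UMIs in N2. Their N2 levels were 20.4 and 21.1 UPM for miR-2220-3p and 6.79 and 21.1 UPM for miR-787-5p. These are under the 29.4 and 34.1 UPM that 0 UMIs allow in the null libraries. Neither null library alone could thus show a loss, and the null libraries pooled were not tested.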

How the data were processed

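Whole comma-stage embryos, 50 to a library, gave 16 small RNA libraries from 8 strains, 2 of each, made with adapters that carry random nucleotides as UMIs. The authors assigned reads to miRNA strands with their own pipeline. The deposited tables give unnormalized estimated counts of reads and of UMIs, which split a sequence between all strands it matches (7.15% of UMI values are fractions), and whole UMI counts in which nothing is split. Other deposited columns, which split the counts in a way that is not defined in the sources used here, were not used. Strands left out of a library's list were taken as 0. Spike-ins were added by the authors per embryo, and their counts were not used here. The labels name WBcel235 as the build, and coordinates are those of its Ensembl annotation, release 115.

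A strand was tested if 2 or more libraries held 10 or more of its UMIs. Rounded UMIs entered 1 quasi-likelihood fit of all 16 libraries (edgeR 4.0.16, R 4.3.3). The library size was the sum of UMIs outside the miR-51 family times a TMM factor. Benjamini-Hochberg adjustment ran over 162 strands, with calls below 0.05. The biological coefficient of variation was 25.3%, and a standard error is the log2 fold change divided by the root of its F statistic. Shares were compared by exact permutation. Nothing says whether the libraries of a strain came from separate cultures, so the p-values measure the spread between libraries. In the fit of all 16 libraries this spread is pooled over all strains, not taken from the null and N2 alone. The median difference between replicates was largest in the null, 0.454 on the log2 scale, against 0.150 to 0.394 in the other strains. Whether the pooled spread is too small for the null was not tested. The text names the guides and passengers of the family and all called strands. It also names the 10 largest rises and the 10 largest falls with groups that do not overlap, and some of their other arms. Members of the lists are named in part, and the lists are otherwise given as counts, medians or shares. miR-42-5p, miR-61-5p, miR-67-3p, miR-79-5p, miR-231-3p, miR-250-5p and the other hairpins named by arm share, and the 2 strands found in N2 alone, were chosen after their values were seen. The members and lists were chosen with earlier results of these data known.

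Alternatives were other scalings, DESeq2 1.42.0, other filters, reads, UMIs in full, the 4 libraries alone, the replicate number as a block, a minimum log2 fold change of 1 and each library left out. Python 3.11.15, numpy 2.4.6, pandas 2.3.3 and matplotlib 3.10.9 were used for the rest.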

Additional observations from a re-analysis of the deposited data

How the results depend on the processing

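All 6 guides of the miR-51 family were called lower under all alternatives, the passengers too except miR-52-3p without either N2 library, which the filter then removed, and the cluster guides stayed higher than in the replacement strains in all alternatives run for that comparison. Of the strands called outside the family, 9 in the fit reported, DESeq2 called 5, reads in place of UMIs 3 and a test for a log2 fold change of at least 1 called 2. With each library left out in turn, 1 to 6 were called. Passengers called lower numbered 6, against 1 with reads and 1 to 3 with each library left out. The median difference of passenger over guide within hairpins, -0.33, ranged from -0.806 to 0.0620 with each library left out, and the positive value came without replicate 1 of the null; the cause was not tested. miR-62-5p passed the threshold in 16 of 16 alternatives and miR-70-3p in 15 of 16. miR-235-3p and miR-86-3p passed in 11 of 16 each, miR-228-3p and miR-78-3p in 7 of 15, miR-43-5p in 6 of 16, miR-124-5p in 5 of 15 and miR-44-5p in 4 of 16, and 0 of these 9 turned its direction. The replicate numbers were not taken as pairs, since of 28 pairs of strains only 12 had deviations that correlated above 0.1 and 7 were below -0.1; the null and N2 had the highest value, 0.641. With the replicate number as a block, 8 strands were called, 2 higher and 6 lower, without miR-78-3p (adjusted p = 0.0584). Without the miR-54 strain, an alternative chosen after seeing the data, 9 were called, 4 higher and 5 lower. The replicates of that strain differed by a median of 0.291 on the log2 scale, less than those of the null with 0.454. Depth limits low strands; the larger null library held 104016 UMIs.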

Other observations

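Several strands with large fold changes lay above or below both N2 libraries and did not pass the test. miR-77-3p was at 1420 and 421 UPM in the null, against 378 and 133 UPM in N2 (log2 fold change 1.78, SE 0.76, adjusted p = 0.190, edgeR), and its passenger miR-77-5p, under the filter, had 5 and 8 UMIs in the null, against 7 and 0 in N2. miR-85-3p was at 108 and 148 UPM in the null, against 39.0 and 35.1 UPM in N2 (1.73, SE 1.07, adjusted p = 0.389). miR-8191-5p and miR-230-3p had at most 15 UMIs in any of the 4 libraries. On the low side, miR-1822-5p was at 19.6 and 22.8 UPM in the null, against 64.5 and 91.3 UPM in N2 (-1.79, SE 0.82, adjusted p = 0.234), and miR-239a-3p and miR-74-5p, also passengers, had values of -1.28 and -1.19. miR-60-5p was at 186 and 216 UPM in the null, against 465 and 450 UPM in N2 (-1.19, SE 0.42, adjusted p = 0.0880).

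Among the abundant guides, miR-67-3p was at 13387 and 10830 UPM in the null, against 18248 and 17765 UPM in N2 (log2 fold change -0.57, SE 0.24, adjusted p = 0.166), and miR-66-5p at 13465 and 16768 UPM, against 19868 and 22788 UPM (-0.50, SE 0.21, adjusted p = 0.195). Both lay below N2 in each null library and neither passed. mir-61 and mir-250 are neighbours on the minus strand of chromosome V, from 11770060 to 11770156 and from 11769917 to 11770015, and 3 of their 4 strands, hairpins picked after their values were seen, lay above both N2 libraries in the null, as did 20.7% of all strands: miR-61-3p, miR-61-5p (0.53, SE 0.35, adjusted p = 0.409) and miR-250-5p. The remaining strand, miR-250-3p, lay below both, and 0 of the 4 were called, with 2 at an unadjusted p under 0.05.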
